A study of Mus musculus with 4 samples.

Results

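Genes subject to genomic imprinting in mice were followed through single-cell RNA-seq of stromal cells from adult gut: Peg3, Meg3, Dlk1, Igf2, H19, Plagl1, Cdkn1c, Ndn, Mest and Grb10. They were chosen by symbol, as 10 of the 28692 genes listed in each of 4 libraries, with earlier results of these data known. Their unique molecular identifier (UMI) counts were read by intestine and by cell class, so the calls given for them are a description set beside the share of all genes called, and not independent evidence. Mesenchymal stromal cells (MSC) came from the lamina propria of small intestine and colon of untreated C57BL6/Nrj mice of 8 to 10 weeks, 3 female mice being pooled in each of 2 experiments, which gave 2 libraries per intestine. The outer muscle layer had been removed, and live cells positive for Itgb1 and negative for CD45, Ter119, CD31, BP3, EpCAM and L1CAM had been sorted. The strain is inbred, so the parental allele that a transcript came from cannot be told, and imprinting itself was not measured.

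Imprinted genes are transcribed mainly from the chromosome inherited from a given parent, because methylation set in the germline marks a control region near them. Many act on growth. Igf2 is a paternally expressed growth factor, whereas Cdkn1c (p57, an inhibitor of cyclin-dependent kinases), Grb10 (an adaptor that restrains insulin and IGF receptor signalling) and the long non-coding RNAs Meg3 and H19 are mainly expressed from the maternal chromosome. Peg3 and Plagl1 (ZAC1) encode zinc finger transcription factors, Ndn (necdin) a protein of the MAGE family, Mest a hydrolase-like membrane protein and Dlk1 a transmembrane protein related to Notch ligands. Most of these genes are abundant in the fetus and fall after birth.

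The 4 libraries held 34983 barcodes, of which 30707 were kept as cells after filters on depth, mitochondrial UMIs and likely doublets. Library totals ran from 14341443 to 52269372 UMIs, and the listed genes gave 7533 to 72323 of them. Marker genes, none of them a listed gene, placed 27408 cells in 5 MSC classes: 4759 PDGFRαhi fibroblasts (FB), 5736 CD81+ FB, 15628 other PDGFRαlo FB, 1109 smooth muscle cells (SMC) and 176 pericytes. These names stand for gates on marker scores and mean cells like the named type. Of the 29758 cells in these classes or in none, 14.2% lay near the cut for CD81+ FB and 6.50% near that for PDGFRαhi FB. Among the 10 genes that led each gate were its own markers Sox6 and Bmp7 in PDGFRαhi FB, Pi16 and Ackr4 in CD81+ FB, Actg2 and Cnn1 in SMC, and Ndufa4l2 and Notch3 in pericytes. Summed endothelial markers were at 7.295 to 31.1 CPM in the 3 FB classes and at 22.6 to 265 CPM in pericytes. Between 0 and 69 barcodes were shared by any pair of libraries. Replicate 1 was deeper per cell than replicate 2 in both intestines, with medians of 6840 and 8707.5 UMIs against 2744 and 3876, and had been counted with another Cell Ranger version. A level is given as CPM, the UMIs of a gene per 1000000 UMIs of its class in its library.

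Of the 10 genes, 8 had a promoter entry, from 250 bases before to 50 bases after a start, in RefSeq sequence of GRCm38.p6. H19 and Cdkn1c had none. The promoter of Peg3 is shown because its level went in opposite directions between the intestines in different FB, that of Meg3 because this gene gave most of the UMIs and was higher in replicate 2 throughout, and that of Plagl1 because this gene had the highest difference in CD81+ FB. Capitals mark matches on either strand, in Peg3 to the ZAC1 motif, in Meg3 to overlapping copies of the TATA box, and in Plagl1 to the E-box.
Peg3 (chr7:6730370-6730669, minus strand): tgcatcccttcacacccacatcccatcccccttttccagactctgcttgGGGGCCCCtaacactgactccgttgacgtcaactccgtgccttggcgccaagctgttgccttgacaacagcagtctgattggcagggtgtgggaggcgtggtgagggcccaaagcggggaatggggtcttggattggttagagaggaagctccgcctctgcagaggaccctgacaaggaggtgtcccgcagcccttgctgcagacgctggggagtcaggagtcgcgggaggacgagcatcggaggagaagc
Meg3 (chr12:109540746-109541045, plus strand): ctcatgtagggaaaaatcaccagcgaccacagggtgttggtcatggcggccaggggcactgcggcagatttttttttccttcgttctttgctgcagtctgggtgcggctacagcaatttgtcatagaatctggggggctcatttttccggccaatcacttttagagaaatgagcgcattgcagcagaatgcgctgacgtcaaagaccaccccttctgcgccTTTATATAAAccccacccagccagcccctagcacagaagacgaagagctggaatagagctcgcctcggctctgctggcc
Plagl1 (chr10:13090582-13090881, plus strand): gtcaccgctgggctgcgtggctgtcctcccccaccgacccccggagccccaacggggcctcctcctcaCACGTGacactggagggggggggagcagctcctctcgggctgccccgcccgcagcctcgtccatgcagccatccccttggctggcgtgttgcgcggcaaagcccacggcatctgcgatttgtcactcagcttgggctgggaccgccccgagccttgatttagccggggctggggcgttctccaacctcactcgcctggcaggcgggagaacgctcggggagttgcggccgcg

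Among 32544 promoters of the same length, 1.07% held the ZAC1 motif as searched, GGGGCCCC. The TATA box, searched as TATAAA, was in 13.6%, and the E-box, searched as CACGTG, in 7.17%. A YY1 motif, searched as GCCATNTT, was in 6.08% and in none of the entries of the 8 genes. The Plagl1 promoter held 26 CpG, the Peg3 and Meg3 promoters 13 each, against a median of 7. A match describes these letters and is no evidence of binding. By the GENCODE vM21 annotation of GRCm38, Peg3 spans chr7:6703892-6730431, Meg3 chr12:109541001-109571726, Plagl1 chr10:13060504-13131694 and Cdkn1c chr7:143458339-143461050. Igf2 (chr7:142650766-142666816) and H19 (chr7:142575529-142578143) are neighbours, as are Dlk1 (chr12:109452823-109463336) and Meg3. Ndn lies at chr7:62346569-62350262, Mest at chr6:30723547-30748465 and Grb10 at chr11:11930508-12038683. Mest overlaps Copg2 on the opposite strand, which had 1622 UMIs in the MSC classes against 280 for Mest, and whether counting used the strand is not given in the sources used here, so Mest values are uncertain. The antisense genes overlapping Meg3, Igf2, Cdkn1c and Ndn had 21, 6, 2 and 0 UMIs.

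Over the 5 MSC classes Meg3 gave 115979 UMIs, Peg3 8072, Ndn 7791, Grb10 5291, Cdkn1c 3878, Plagl1 2343, Igf2 508, Mest 280, Dlk1 24 and H19 1. UMI totals were not corrected for transcript length. Meg3, Ndn and Grb10 had at least 76 UMIs in every FB class of every library. Peg3, Cdkn1c and Plagl1 had as few as 7, 4 and 6 in small intestinal PDGFRαhi FB of replicate 1, and Dlk1 and H19 were close to 0.

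Meg3, a nuclear long non-coding RNA of the Dlk1 locus, was lowest in PDGFRαhi FB. Its level there was 85.7 and 301 CPM in small intestinal replicates 1 and 2 and 86.7 and 318 CPM in the colonic ones. In CD81+ FB it was 512 and 1533 CPM in small intestine and 418 and 1924 CPM in colon, and in other PDGFRαlo FB 511 and 1570 CPM against 377 and 1447 CPM. PDGFRαhi FB were the lowest of the 5 classes in 4 of 4 libraries. With library as a block, Meg3 fell by 1.90 (log2, SE 0.16) in PDGFRαhi FB against the mean of the other 4 classes (edgeR quasi-likelihood test, adjusted p = 3.49e-08). It rose by 1.54 (SE 0.13) in CD81+ FB and by 1.22 (SE 0.13) in other PDGFRαlo FB, and fell by 0.81 (SE 0.17) in pericytes, all with an edgeR adjusted p of 0.0011 or less. In SMC the difference was -0.04 (SE 0.15).

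**Figure D1:**
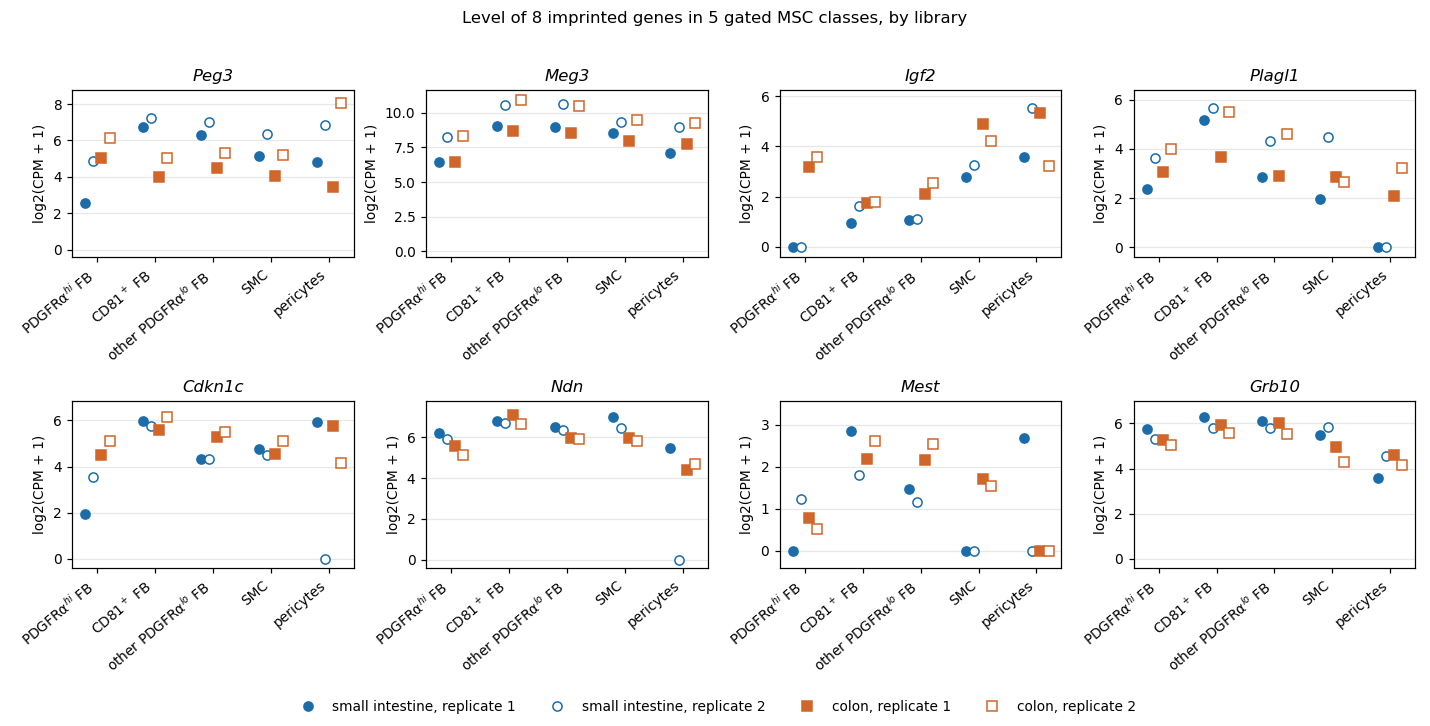
Level of 8 imprinted genes (log2(CPM + 1), vertical axis) in 5 gated MSC classes (horizontal axis), each point being the summed cells of a class in 1 library, with circles for small intestine, squares for colon, filled for replicate 1 and open for replicate 2. Meg3 was lowest in PDGFRαhi FB in 4 of 4 libraries, and Igf2 was at 0 in both small intestinal libraries of that class.

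The share of cells with a Meg3 UMI showed the same order. Of small intestinal CD81+ FB 83.8% and 86.0% had one, and of colonic ones 78.1% and 89.7%. Of PDGFRαhi FB the shares were 24.8% and 27.3% against 31.3% and 36.3%. After each cell was thinned to 1500 UMIs, CD81+ FB stood at 38.9 to 77.7% and PDGFRαhi FB at 8.97 to 24.2%, so every CD81+ value was above every PDGFRαhi value. In endothelial-like cells of small intestinal replicate 1, 0.587% (thinned 0.617%) of 341 cells had a Meg3 UMI, against 0 of 232 in colonic replicate 1. Their median depths were 4495 and 5048.5 UMIs, against 9446 and 10431 in PDGFRαhi FB. A count of 0 allows up to 1.29% of those 232 cells to have a Meg3 UMI at their depth. Pooled over libraries, Meg3 was at 244 CPM in 72 immune-like cells and at 85.6 CPM in 27 plasma-like cells. PDGFRαhi FB pooled in the same way were at 231 CPM, so endothelial-like cells give no common background for Meg3.

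The growth inhibitors Cdkn1c and Grb10 were highest or near highest in CD81+ FB. Cdkn1c was at 61.6 and 54.0 CPM in small intestinal and 47.3 and 69.4 CPM in colonic CD81+ FB, above both other FB classes in 4 of 4 libraries. In PDGFRαhi FB its levels were 2.81, 10.5, 21.7 and 33.4 CPM in the same order, below both other FB classes in 4 of 4 libraries. Grb10 was at 77.0, 55.4, 59.7 and 46.5 CPM in CD81+ FB and at 10.8, 22.6, 23.0 and 16.6 CPM in pericytes, which were the lowest class in 4 of 4 libraries. The Grb10 ranges of CD81+ FB and of other PDGFRαlo FB, 44.6 to 67.5 CPM, overlapped.

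Ndn, Plagl1 and Mest also had more in CD81+ FB than in PDGFRαhi FB, whereas Peg3 did so in both small intestinal libraries and had less in both colonic ones. Ndn was at 108 and 101 CPM in small intestinal and 133 and 101 CPM in colonic CD81+ FB, and in PDGFRαhi FB at 72.3, 58.3, 46.5 and 34.3 CPM, so that these ranges did not overlap. Plagl1 was at 35.4, 50.7, 11.8 and 44.3 CPM in CD81+ FB, the highest of the 5 classes in 4 of 4 libraries. Mest, with few UMIs, was at 6.26, 2.47, 3.55 and 5.07 CPM in CD81+ FB and at 0 to 1.36 CPM in PDGFRαhi FB.

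CD81+ FB differed from the mean of the other classes at 7 of 8 listed genes tested, 6 of them higher, where 29.8% of 11555 genes were called and 18.7% were called higher. Their median log2 difference was 1.41, against 0.03 over all genes. Those higher were Plagl1 (log2 2.47, SE 0.31), Mest (1.90, SE 0.46), Meg3, Cdkn1c (1.45, SE 0.29), Ndn (1.37, SE 0.14) and Grb10 (1.08, SE 0.13), with edgeR adjusted p of 0.0034 or less. Igf2 was lower (log2 -1.53, SE 0.51, edgeR adjusted p = 0.0297), and Peg3 was not called (log2 0.60, SE 0.60, edgeR adjusted p = 0.52). PDGFRαhi FB had 3 genes called, all lower (Meg3, Cdkn1c and Ndn), where 10.5% of genes were called lower. Other PDGFRαlo FB had Meg3, Grb10 (log2 0.86, SE 0.13) and Ndn higher and Igf2 lower (log2 -1.52, SE 0.43) where 20.9% were called, 14.5% higher and 6.42% lower. Pericytes had Ndn (log2 -1.71, SE 0.29), Grb10 (log2 -1.52, SE 0.30) and Meg3 lower and none higher, where 12.2% were called lower and 10.3% higher. SMC had Igf2 higher (log2 1.48, SE 0.45) where 29.9% were called and 16.7% called higher. The 4 libraries held only 29 to 53 pericytes each. Of these calls, those of Igf2 in SMC and in other PDGFRαlo FB were lost without colonic replicate 1, at log2 1.17 and -1.28 (edgeR adjusted p = 0.327 and 0.247). The Igf2 call in CD81+ FB was lost without small intestinal replicate 1, colonic replicate 1 or colonic replicate 2, at log2 -1.54, -1.19 and -1.13.

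**Figure D2:**
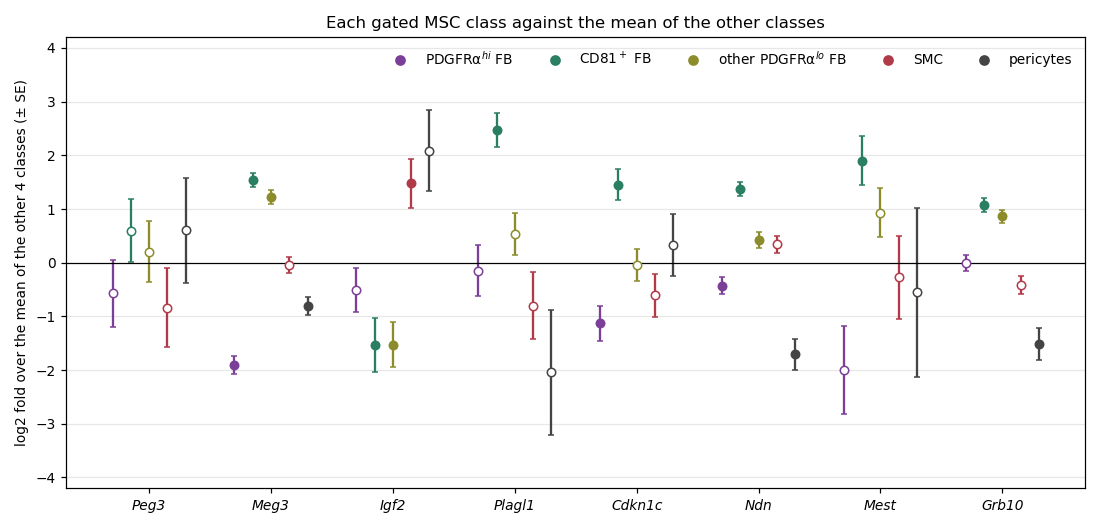
Log2 difference (vertical axis) of each gated MSC class (colour) from the mean of the other 4 classes for 8 imprinted genes, from the edgeR fit over 20 class sums. Bars are ± 1 SE and filled points have an adjusted p under 0.05. CD81+ FB were higher at 6 genes, Plagl1 by 2.47, and lower at Igf2.

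The calls of Cdkn1c and Ndn in PDGFRαhi FB rested on single libraries. Cdkn1c (log2 -1.13, SE 0.33, edgeR adjusted p = 0.0193) stood at -0.80, -1.04 and -1.21 without small intestinal replicate 1, small intestinal replicate 2 or colonic replicate 1, with edgeR adjusted p of 0.0545, 0.0877 and 0.108. Ndn (log2 -0.43, SE 0.15, edgeR adjusted p = 0.0479) stood at -0.35, -0.45 and -0.37 without small intestinal replicate 1, colonic replicate 1 or colonic replicate 2, and at -0.30 under a stricter gate (edgeR adjusted p = 0.217). The Ndn call in other PDGFRαlo FB (log2 0.42, SE 0.14, edgeR adjusted p = 0.0417) was lost without small intestinal replicate 2, colonic replicate 1 or colonic replicate 2, at 0.34, 0.44 and 0.41.

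Between the intestines, Peg3 differed in opposite directions in different FB. Small intestinal CD81+ FB had 105 and 152 CPM, and colonic ones 14.8 and 31.5 CPM. In other PDGFRαlo FB it was at 77.1 and 130 CPM against 21.4 and 38.0 CPM, and again the intestines did not overlap. In PDGFRαhi FB the order was turned, with 4.92 and 28.8 CPM in small intestine and 32.2 and 68.6 CPM in colon. SMC had 34.9 and 81.9 CPM against 15.4 and 36.2 CPM, which overlapped.

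Peg3 encodes a zinc finger protein that can repress transcription. Within same-numbered libraries, which shared a Cell Ranger version, colonic Peg3 was 0.140 and 0.207 times the small intestinal level in CD81+ FB and 0.277 and 0.291 times in other PDGFRαlo FB. It was 0.440 and 0.442 times in SMC, and 6.56 and 2.38 times in PDGFRαhi FB. The log2 colon effect was -2.52 (SE 0.44, edgeR adjusted p = 0.122) in CD81+ FB, -1.82 (SE 0.46, edgeR adjusted p = 0.267) in other PDGFRαlo FB and 1.67 (SE 0.82, edgeR adjusted p = 0.537) in PDGFRαhi FB. None passed the threshold with 2 libraries a group. With the Cell Ranger version, and so the replicate number, as a block in the edgeR fit, all 3 passed, at log2 -2.55 (edgeR adjusted p = 1.4e-05), -1.83 (4.45e-05) and 1.72 (1.15e-11), which leaves 1 residual degree of freedom a gene. Summed pericyte markers were also lower in colonic FB, at 567.6 and 654 CPM in small intestinal and 131 and 103 CPM in colonic CD81+ FB, and at 1274 and 1075 CPM against 233 and 221.5 CPM in PDGFRαhi FB, where Peg3 went the other way. Summed markers of Fgfr2+ FB (Fgfr2, Adamdec1, Cxcl14 and Fgf10, none at 0 here) moved the same way as Peg3 in all 4 larger classes. They were at 1446 and 1443 CPM in small intestinal and 558 and 190 CPM in colonic CD81+ FB, and at 8075 and 6292 against 5588 and 3085 CPM in other PDGFRαlo FB. In SMC they were at 4826 and 5029 against 946 and 915 CPM, and in PDGFRαhi FB, where Peg3 was higher in colon, at 3157 and 2762 against 6642 and 4790 CPM. The part of either marker list in the Peg3 difference was not tested. DESeq2 called Peg3 lower in colonic CD81+ FB (log2 -2.52, adjusted p = 2.55e-05) and other PDGFRαlo FB (log2 -1.83, adjusted p = 0.00654).

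The shares of cells with a Peg3 UMI moved the same way. They were 47.5% and 32.9% of small intestinal and 11.5% and 10.5% of colonic CD81+ FB, and 3.18% and 5.60% of small intestinal and 22.2% and 18.7% of colonic PDGFRαhi FB. At 1500 UMIs per cell they were 12.5% and 19.2% against 1.05% and 4.15% in CD81+ FB, and 1.28% and 3.42% against 4.76% and 9.02% in PDGFRαhi FB. In endothelial-like cells of small intestinal and colonic replicate 1, 1.47% and 4.31% had a Peg3 UMI (thinned 0.309% and 0.444%), at median depths of 4495 and 5048.5 UMIs. The small intestinal PDGFRαhi FB of replicate 1 had 7 Peg3 UMIs in 157 cells. Their share of 3.18% lay between the 1.47% and 4.31% of endothelial-like cells. Their thinned share of 1.28% was above 0.309% and 0.444%.

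Igf2 UMIs were found in PDGFRαhi FB of both colonic libraries and of neither small intestinal one. None of 157 and 1233 small intestinal PDGFRαhi FB had an Igf2 UMI, at median depths of 9446 and 2228 UMIs against 10431 and 3947 in colon. This allows a share of cells with an Igf2 UMI of up to 0.216% and sets no limit on the share of cells that express the gene. In colon 49 of 630 and 116 of 2739 cells had at least 1, giving 8.17 and 11.0 CPM. Against a floor of 3 counts over both small intestinal libraries, 0.686 CPM, Igf2 was at least 13.9-fold higher in colon. At 1500 UMIs per cell the colonic shares were 0.476% and 1.34%. In endothelial-like cells, which had Igf2 UMIs of their own, the shares of cells were 3.81% and 4.74% in replicate 1, so they give no background for this gene. Immune-like cells, 72 in all, had none. The edgeR adjusted p was 0.058 (7.41e-12 with the replicate block), and the DESeq2 adjusted p was 0.00141.

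In other PDGFRαlo FB, SMC and CD81+ FB each colonic Igf2 level was above both small intestinal ones, and none of these differences was called by the unblocked edgeR fit. Other PDGFRαlo FB had 1.11 and 1.15 CPM in small intestine and 3.33 and 4.75 CPM in colon (log2 1.81, SE 0.45, edgeR adjusted p = 0.259, and 0.00918 with the replicate block). SMC had 5.81 and 8.63 CPM, from 2 UMIs each, against 28.9 and 17.6 CPM (log2 1.75, SE 0.63, edgeR adjusted p = 0.656). CD81+ FB had 0.939 and 2.09 CPM against 2.37 and 2.40 CPM, a log2 difference of 0.47 (SE 0.62). Neither intestine overlapped the other in these 3 classes, though in SMC and CD81+ FB the values rest on 2 to 64 UMIs a library.

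Cdkn1c, which arrests the cell cycle, was at 2.81 and 10.5 CPM in small intestinal and 21.7 and 33.4 CPM in colonic PDGFRαhi FB, from 4, 31, 149 and 380 UMIs. Same-numbered colonic libraries were 7.74 and 3.17 times higher (log2 2.09, SE 0.62, edgeR adjusted p = 0.229, and 2.97e-11 with the replicate block). In other PDGFRαlo FB it was at 19.3 and 19.1 CPM against 38.5 and 44.8 CPM, ratios of 1.99 and 2.35 (log2 1.09, SE 0.23, edgeR adjusted p = 0.193, and 0.00207 with the replicate block). In CD81+ FB the ratios were 0.767 and 1.29, and the log2 difference was -0.08 (SE 0.31).

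Ndn was lower in colonic than small intestinal PDGFRαhi FB, SMC and other PDGFRαlo FB in both same-numbered pairs, at 0.643 and 0.588, 0.477 and 0.641, and 0.700 and 0.733 times. The log2 differences were -0.55 (SE 0.28), -0.86 (SE 0.36) and -0.51 (SE 0.20), none called without the replicate block. Summed CD81+ FB markers were also lower in colon there, at 138 and 261 against 83.7 and 89.5 CPM in PDGFRαhi FB. In SMC they were at 474 and 1117 against 221 and 177 CPM. Other PDGFRαlo FB had 2264 and 1892 against 1171 and 1033 CPM. CD81+ FB had 6427 and 6213 against 5261 and 5042 CPM, and there the Ndn ratios were 1.23 and 0.994. The part of these markers in the Ndn difference was not tested. Ndn is a growth suppressor of postmitotic neurons that is also expressed by mesenchymal cells. Mest was at 1.78 and 1.23 CPM in small intestinal and 3.49 and 4.84 CPM in colonic other PDGFRαlo FB (log2 1.51, SE 0.46, edgeR adjusted p = 0.368, and 0.0209 with the replicate block). Meg3 and Grb10 had ratios from 0.684 to 1.26 and from 0.331 to 0.941 in the 4 larger classes. Plagl1 had ratios of 0.335 and 0.875 in CD81+ FB, and 1.77 and 1.29 in PDGFRαhi FB.

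None of the listed genes was called between intestines by the unblocked edgeR fit in any of 4 classes: 0 of 7 tested in PDGFRαhi FB, 0 of 8 in CD81+ FB, 0 of 8 in other PDGFRαlo FB and 0 of 6 in SMC. Of all genes, 1.76%, 0.376%, 0.327% and 0.158% were called. By direction these were 0.968% higher and 0.788% lower in PDGFRαhi FB, and 0.0528% higher and 0.106% lower in SMC. At an unadjusted p under 0.05 the edgeR fit gave 2, 1, 4 and 2 listed genes. Over all genes it gave 1509 of 11673, 1055 of 11441, 1272 of 12843 and 612 of 9467. DESeq2 called 1, 1, 1 and 0 listed genes, where it called 623, 262, 468 and 76 of all those genes. The median log2 difference of the listed genes tested was 0.60, -0.03, 0.02 and -0.46, and that of all genes 0.02, -0.0049, 0.0018 and 0.01. These counts come from a fit without the replicate number, although Meg3 and Peg3 were higher in replicate 2 in every class. With the number as a replicate block, which also takes up the Cell Ranger version, edgeR called 4, 1, 5 and 0 listed genes, where 24.4%, 10.1%, 15.0% and 4.48% of all genes were called. They were Peg3, Cdkn1c, Igf2 and Ndn in both PDGFRαhi and other PDGFRαlo FB, Mest in other PDGFRαlo FB and Peg3 in CD81+ FB.

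**Figure D3:**
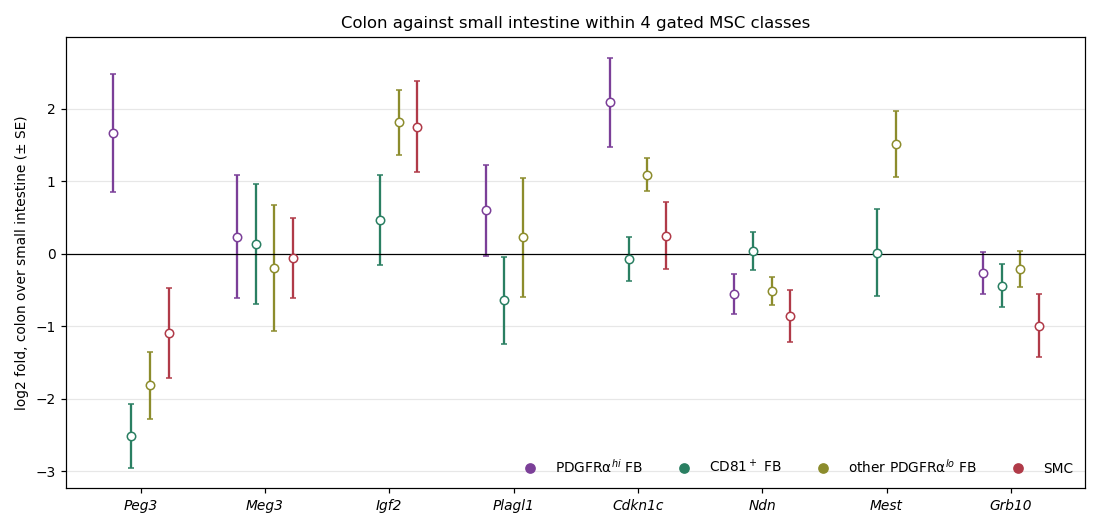
Log2 difference of colon from small intestine (vertical axis) for 8 imprinted genes in 4 gated MSC classes (colour), from the edgeR fit of each class over 4 libraries. Bars are ± 1 SE, and open points did not pass an adjusted p of 0.05 in this unblocked fit, which holds for all points drawn. Igf2 in PDGFRαhi FB is left out because both small intestinal libraries were at 0. Peg3 lay at -2.52 in CD81+ FB and at 1.67 in PDGFRαhi FB.

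The difference of the colon effect between CD81+ FB and PDGFRαhi FB was tested with library as a block, which removes what a library's classes share. Of 8 listed genes tested 4 passed, 1 higher and 3 lower, where 10.9% of 12320 genes were called, 3.9% higher and 6.98% lower. Peg3 differed by -4.17 (log2, SE 0.43, edgeR adjusted p = 0.00165), its colon effect being negative in CD81+ FB and positive in PDGFRαhi FB. Cdkn1c differed by -2.01 (SE 0.38, edgeR adjusted p = 0.0058) and Ndn by 0.60 (SE 0.18, edgeR adjusted p = 0.0483). Igf2 also passed (edgeR adjusted p = 0.0029), and its fitted size is no bound because of the 0 counts. Plagl1 differed by -1.21 (SE 0.36, edgeR adjusted p = 0.0503), while Meg3 at -0.25 (SE 0.18) and Grb10 at -0.16 (SE 0.20) did not pass. The Peg3 call was lost without colonic replicate 1 (log2 -4.19, edgeR adjusted p = 0.0622), without colonic replicate 2 (-4.15, 0.092) and with doublets kept (-3.60, 0.167). The Cdkn1c call was lost without colonic replicate 2 (-1.94) and with doublets kept (-1.71), that of Igf2 without small intestinal replicate 2 (edgeR adjusted p = 0.0924), and that of Ndn when any of the 4 libraries was left out, at 0.53, 0.66, 0.60 and 0.60.

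Replicate 2 had more Meg3 than replicate 1 in each of the 5 MSC classes of both intestines, by 1.80 to 4.60 times. Peg3 was higher in replicate 2 in each of them too, by 1.44 to 5.86 times outside pericytes. Plagl1 was 1.43 to 3.75 times higher in the FB classes. In SMC it stood at 0.829 times in colon, from 25 UMIs, and at 7.42 times in small intestine, from 6 UMIs. Outside pericytes, Ndn stood at 0.674 to 0.940 times and Grb10 at 0.623 to 1.29 times. In small intestinal CD81+ FB, 98.2% of 8716 genes with at least 100 UMIs had a smaller ratio in size than Meg3. The replicate number and the Cell Ranger version go together and cannot be told apart. Which experiment and which kit, 3′ v3 or 5′, each library came from is not given in the sources used here, so the part of either in the higher Meg3 of replicate 2 was not tested. Ratios of Meg3, Peg3 and Plagl1 between intestines were therefore given within a replicate number. The unblocked fits and the statements of overlap took both numbers together.

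**Figure D4:**
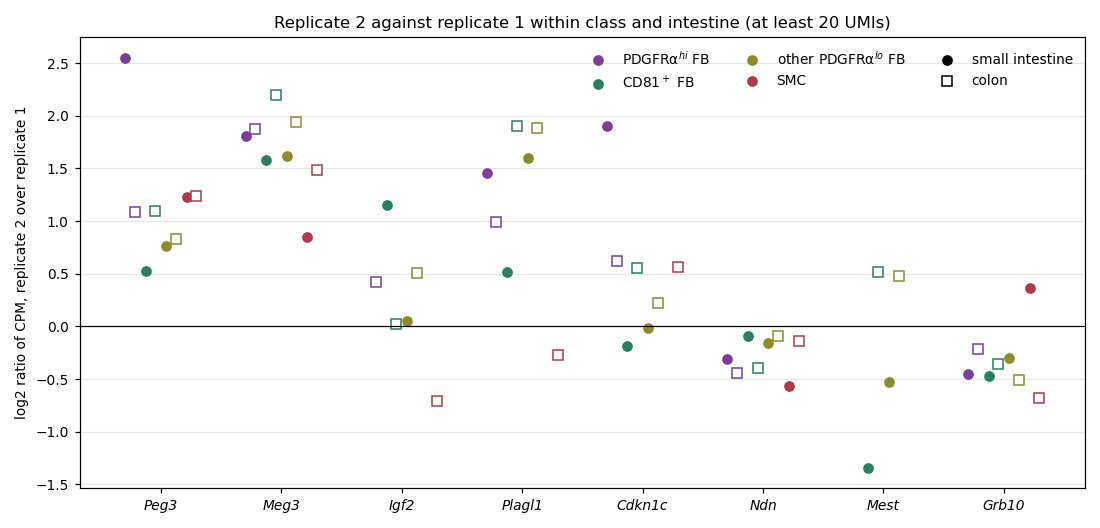
Log2 ratio of CPM in replicate 2 over replicate 1 (vertical axis) for 8 imprinted genes, by class (colour) and intestine (filled circles small intestine, open squares colon), in PDGFRαhi, CD81+ and other PDGFRαlo FB and SMC with at least 20 UMIs. All Meg3 points lay above 0, from a ratio of 1.80 to 4.60, while every Ndn point and all but 1 Grb10 point lay below 0.

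Pericytes gave uneven values. Peg3 was at 27.0, 113, 9.84 and 265 CPM there, from 5, 5, 3 and 32 UMIs, and 21 of the 32 UMIs in colonic replicate 2 came from 1 cell. Small intestinal pericytes had Igf2 at 10.8 and 45.2 CPM and colonic ones at 39.4 and 8.29 CPM, from 2, 2, 12 and 1 UMIs, a log2 difference from the other classes of 2.09 (SE 0.76, edgeR adjusted p = 0.0589).

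Dlk1 and H19, each abundant in fetal mesenchyme, were nearly absent. Dlk1 had 24 UMIs in 6 of 30707 cells. Of these, 8 came from 1 small intestinal CD81+ FB, 2 from 2 small intestinal other PDGFRαlo FB and 14 from 3 colonic ones, all in replicate 2. The replicate 1 libraries had 0, where 3 counts in CD81+ FB would be 0.939 CPM in small intestine and 1.77 CPM in colon, above the 0.760 CPM seen in replicate 2, so a level of that size was not detectable in them. H19 had 1 UMI in the MSC classes.

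Outside the MSC gates, Igf2, Mest and H19 were found in endothelial-like cells, although CD31+ cells had been sorted away. Their 597 cells, 341 and 232 of them in small intestinal and colonic replicate 1, had Mest at 42.3 and 18.3 CPM, against at most 6.26 and 3.55 CPM in any MSC class of those libraries. Igf2 was at 21.8 and 22.2 CPM, and 15 of its 34 UMIs in small intestine and 14 of 28 in colon were in 1 cell. H19 had 2 UMIs in 2 cells and 13 UMIs in 3 cells, all 5 of them with a Lyve1 UMI, a lymphatic endothelial marker, and 2 of the colonic 3 also with a UMI of Plvap, a blood endothelial marker. Of the 13 UMIs, 11 were in 1 cell. Interstitial cells of Cajal (ICC, pacemaker cells of gut muscle) had Ndn at 230 and 184 CPM in colonic replicates 1 and 2, from 11 and 50 cells, against at most 133 and 101 CPM in the MSC classes. No test was made for these groups.

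**Figure D5:**
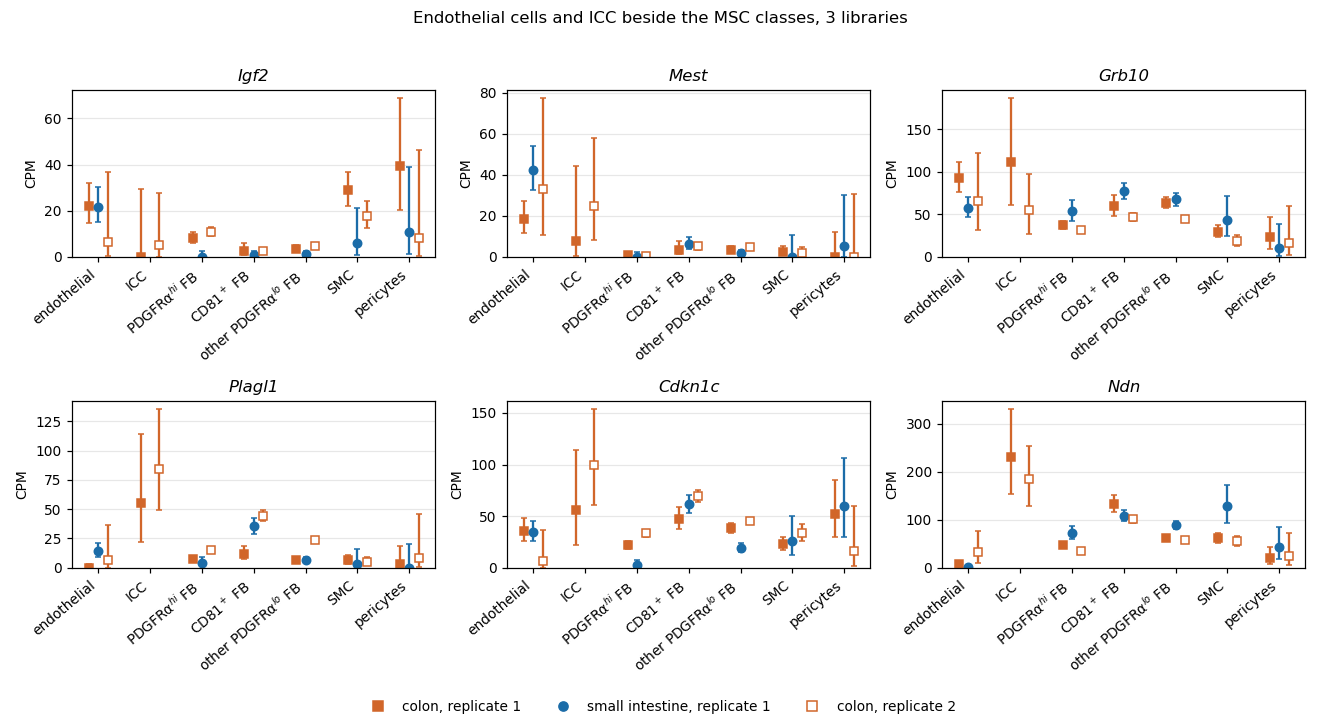
Level (CPM, vertical axis) of 6 imprinted genes in endothelial-like cells and ICC beside the MSC classes (horizontal axis), in the 3 libraries with at least 10 cells of either. Bars are exact 95% Poisson intervals, which cover counting error only. Mest was at 42.3 and 18.3 CPM in endothelial-like cells of replicate 1, and Ndn at 230 and 184 CPM in ICC.

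Of a wider list of 50 imprinted genes, 47 were in the files. Of 24, 27, 29 and 19 tested, 0 were called between intestines in any class. Of all genes 1.76%, 0.376%, 0.327% and 0.158% were called. At an unadjusted p under 0.05 by edgeR, 1509 of 11673, 1055 of 11441, 1272 of 12843 and 612 of 9467 genes passed. From the wider list 6, 2, 6 and 2 did. The 5 with most UMIs were Gnas (a G protein subunit, 120341), Kcnq1ot1 (an antisense non-coding RNA, 15333), H13 (a signal peptide peptidase, 12016), Sgce (a sarcoglycan, 10730) and Commd1 (9804). In CD81+ FB against the other classes 6 of 23 were higher and 1 lower, where 18.7% of all genes were called higher and 11.0% lower. Kcnq1ot1 was higher by 0.66 (log2, SE 0.14), Gnas differed by 0.24 (SE 0.10, edgeR adjusted p = 0.0771) and Mirg, a microRNA host transcript downstream of Meg3, was higher by 4.18 (SE 0.62). Mirg was at 10.0, 14.2, 6.51 and 41.5 CPM in CD81+ FB and at 0.702, 0.339, 2.48 and 3.86 CPM in PDGFRαhi FB. PDGFRαhi FB had 4 higher and 1 lower (15.1% and 10.5% of all genes), with H13 higher by 0.30 (SE 0.09), Nnat (neuronatin) by 2.21 (SE 0.37) and Cobl, an actin nucleator, by 4.52 (SE 0.42). Mirg, Nnat and Cobl were named after their values were seen. Other PDGFRαlo FB had 1 higher and 1 lower (14.5% and 6.42% of all genes), SMC 3 and 4 (16.7% and 13.2%), and pericytes 1 and 2 (10.3% and 12.2%), Kcnq1ot1 being lower by 1.45 on the log2 scale (SE 0.18) in SMC and higher by 0.75 (SE 0.19) in pericytes. For the difference of the colon effect, 2 of 28 were higher and 2 lower, none of the 5 named, where 3.9% and 6.98% of all genes were called.

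Of 18 genes of growth control, 1 of 17 tested was called between intestines in PDGFRαhi FB and 0 in the other 3 classes. Of all genes 1.76% were called in PDGFRαhi FB, and 0.376%, 0.327% and 0.158% in the others. At an unadjusted p under 0.05 edgeR gave 6 of 17, 4 of 14, 7 of 17 and 4 of 13 growth genes. Over all genes it gave 1509 of 11673, 1055 of 11441, 1272 of 12843 and 612 of 9467. The gene called was Igfbp5, an IGF-binding protein (log2 -3.49, SE 0.37, edgeR adjusted p = 0.0277). Its call was lost when either small intestinal library was left out. It was at 769 and 1058 CPM in small intestinal and 63.3 and 82.7 CPM in colonic PDGFRαhi FB. Igfbp7, Igfbp4 and Igfbp3 differed there by -0.57 (SE 0.38), -0.28 (SE 0.45) and 1.80 (SE 0.47) and did not pass. Against the other classes CD81+ FB had 6 of 16 higher and 2 lower, where 18.7% and 11.0% of all genes were called, Igfbp4 by 2.24 (SE 0.24) and Igfbp7 by 0.59 (SE 0.10) among those higher. Other PDGFRαlo FB had 6 higher and 1 lower, with Igfbp3 higher by 3.07 (SE 0.47), PDGFRαhi FB 1 and 3, SMC 2 and 5, and pericytes 3 and 3, beside the shares of all genes given above for each class. The difference of the colon effect was called for 4 higher and 3 lower of 17, Igfbp5 by 3.21 (SE 0.18), where 3.9% of all genes were called higher and 6.98% lower.

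The genes whose pattern over the 20 class sums was most like a listed gene were described by Pearson's r of log2(CPM + 1) among 11673 genes. They were Rab3d for Ndn (r = 0.964), Zfp954 for Cdkn1c (0.923), Naaladl2 for Grb10 (0.916), Rps9 for Plagl1 (0.911), Tpt1 for Meg3 (0.889), Phgdh for Mest (0.850), Hdac5 for Igf2 (0.849) and Phip for Peg3 (0.784). Next were Trappc1 and Tm7sf3 for Ndn, Rarg and Mesdc1 for Cdkn1c, Ggh and Ston2 for Grb10, 6030419C18Rik and Rpl26 for Plagl1, Ahnak and Rps25 for Meg3, Elovl4 and Rab36 for Mest, Car2 and Gcnt2 for Igf2, and Sowahc and Sfxn2 for Peg3. Among the listed genes, r reached 0.671 for Ndn with Cdkn1c and -0.672 for Igf2 with Grb10, and Peg3 had r between -0.186 and 0.579 with the other 7. Sums of a library share its depth and cells, and the smallest, of pericytes, carry few UMIs.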

How the data were processed

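Single-cell RNA-seq of sorted MSC gave 4 libraries, 2 per intestine. The authors deposited raw UMI counts per gene and cell, made with Cell Ranger 3.0.2 (replicate 1) or 3.1.0 (replicate 2) on mm10, per the file headers and labels, and the submitters' processing notes also name Seurat 3. A 3′ v3 or a 5′ kit was used, and which library had which is not given in the sources used here. No annotation of cells was among the files used, so classes were rebuilt.

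The filter on barcodes (minimum 500 genes and 1000 UMIs, maximum 10% mitochondrial UMIs) left 32216 of 34983. The automatic Scrublet threshold marked 1 of 15263 cells in a library and was judged not to work, so about the top 5% of doublet scores per library were removed (1509 cells, ties at the limit being kept). Scores of marker lists, with cut values set after the cells were seen, placed cells in classes, leaving 2350 ungated and 118 mixed. Members and lists were chosen with earlier results of these data known, and named genes are the 10 listed ones, the 5 wider and 4 growth genes of most UMIs, and the 3 genes most like each listed gene with at least 200 UMIs, besides Mirg, Nnat and Cobl, added after their values were seen.

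UMIs were summed per library and class and fitted over all genes with edgeR 4.0.16 (filterByExpr, TMM, robust quasi-likelihood test) in R 4.3.3, with Benjamini-Hochberg adjustment over all genes tested and a call at an adjusted p under 0.05. Colon against small intestine had 2 libraries a group, and class contrasts and the difference of effects had library as a block. Each edgeR SE was computed as the absolute log2 difference divided by the square root of the F statistic of its test. DESeq2 1.42.0, other scaling, filters, gates, depth and left-out libraries were alternatives. The fit was also run on simulated data with changes of known size, a fixed spread and no shift between replicates. That run does not show how the fit behaves under the shift seen here. Libraries are pools of 3 mice. In the unblocked fit between intestines, p-values measure the spread between these pools. In fits with a block, they measure the spread that remains after library or replicate number is taken out. Intervals and floors of 3 counts cover counting error only.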

Additional observations from a re-analysis of the deposited data

Results flagged for a closer look

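The difference of the colon effect between CD81+ FB and PDGFRαhi FB passed an edgeR test of the interaction for Peg3 (log2 -4.17, SE 0.43), Cdkn1c (log2 -2.01, SE 0.38), Ndn (log2 0.60, SE 0.18) and Igf2. The fitted Igf2 value of -8.36 (log2) rests on 0 UMIs in both small intestinal PDGFRαhi libraries, depends on the prior count and is no bound.

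In cells outside the MSC classes, some levels had a 95% Poisson interval wholly above every MSC class of the same library. No test between conditions was made for them. Meg3 was at 2348 CPM in 9 Myoc+ Apod+ Ptn+ cells of small intestinal replicate 2. Igf2 was at 21.8 CPM in endothelial-like cells of small intestinal replicate 1, and H19 at 10.3 CPM in those of colonic replicate 1, with 11 of 13 UMIs in 1 cell. Mest was at 42.3 and 18.3 CPM in endothelial-like cells of small intestinal and colonic replicate 1, and Grb10 at 92.9 CPM in those of colonic replicate 1 (117 UMIs, 85 of 232 cells). In ICC, Plagl1 was at 84.6 CPM in colonic replicate 2 (17 UMIs, 50 cells), and Ndn at 230.3 and 184 CPM in colonic replicates 1 and 2. In 42 Myoc+ Apod+ Ptn+ cells of colonic replicate 2, Cdkn1c was at 154.8 CPM (26 UMIs) and Ndn at 202.4 CPM (34 UMIs).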

How the results depend on the processing

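Single genes were followed under the alternatives only for the 35 results with an unadjusted edgeR p under 0.05 in the main fit. Of their 388 values, 322 kept direction and side of the threshold, 35 lost the call, 31 gained it and 0 reversed. Differences with a larger p, which can change sign more readily, were not followed. Between intestines, where 0 listed genes were called, PDGFRαhi FB had 1 under DESeq2 and 1 with no filter on low counts, CD81+ FB 1 and 1, and other PDGFRαlo FB 1 under DESeq2. In the fit with a replicate block, 4, 1, 5 and 0 were called in PDGFRαhi, CD81+ and other PDGFRαlo FB and SMC: Peg3 (log2 1.72), Ndn (-0.56), Igf2 and Cdkn1c (2.12) in the first, Peg3 (-2.55) in CD81+ FB, and Mest (1.67), Peg3 (-1.83), Ndn (-0.51), Igf2 (1.92) and Cdkn1c (1.11) in other PDGFRαlo FB. The labels do not say that a number pairs libraries, and with 2 pairs the check (correlation of same-numbered deviations 0.750, 0.681, 0.789 and 0.632 across genes) cannot settle it. Leaving out 1 library gave 0 to 2 calls in PDGFRαhi FB and 0 to 1 in CD81+ FB, where Peg3 was called in 3 of the 4 cases, and the lone library left in an intestine was assumed to vary like the other intestine's.

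Between classes, leaving out 1 library gave 1 to 2 calls in PDGFRαhi FB, 2 to 4 in other PDGFRαlo FB and 0 to 2 in SMC, and a stricter gate gave 2 in SMC. For the difference of the colon effect, 2 were called with doublets kept, and 1 to 3 without 1 library. Ndn lost that call under DESeq2 (adjusted p = 0.269), with no filter and under the stricter gate.

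Over all genes, calls between intestines numbered 205, 43, 42 and 15 in the 4 classes, 159 to 623, 22 to 595, 42 to 468 and 8 to 210 under other settings, 0 to 465, 38 to 220, 19 to 157 and 22 to 134 without 1 library, and 2846, 1157, 1930 and 424 with the block. The difference of the colon effect gave 1340, 698 to 1751 and 466 to 1402. Calls between classes numbered 2954, 2415, 3454 and 2597 in PDGFRαhi FB, other PDGFRαlo FB, SMC and pericytes, and fell as low as 1865, 1256, 2097 and 1708 without 1 library. The most alike gene was also first with a pseudocount of 10 for Peg3, Meg3, Cdkn1c, Ndn and Mest. With library means subtracted, an alternative chosen after seeing the data, it was also first for Igf2, Cdkn1c and Ndn. The listed genes most and least alike to each other depended on the scale. With a pseudocount of 10, r was 0.458 for Ndn with Cdkn1c and -0.748 for Igf2 with Ndn. With library means subtracted, it was 0.817 for Plagl1 with Grb10. Leaving out shared barcodes was also chosen after seeing the data. Depth limits Igf2, Mest, Dlk1, H19 and all pericyte values most.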
